A study of Mus musculus with 10 samples.

Results

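The genes described here encode enzymes that lead pyruvate within the mitochondrion into the tricarboxylic acid (TCA) cycle, and enzymes that turn the cycle. Others serve the exchange of malate, aspartate and glutamate with the cytosol, or oxidise fatty acids. The carrier that brings pyruvate into the mitochondrion is not part of the set. The genes were chosen by symbol from a list of 41 genes, and all 41 were found among the 24411 genes of each of the 10 libraries. By role, 6 belong to pyruvate entry, 7 to the steps from citrate to 2-oxoglutarate, 7 to the steps from 2-oxoglutarate to oxaloacetate, 6 to malate, aspartate and glutamate exchange, 12 to fatty acid entry and beta-oxidation, and 3 to electron transfer from beta-oxidation. Of the 41, 40 reached a mean of at least 1 FPKM (fragments scaled to transcript length and library size) over the 10 libraries and were tested.

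Pyruvate dehydrogenase turns pyruvate into acetyl-CoA inside the mitochondrion, and the TCA cycle oxidises that acetyl group and hands its electrons to the respiratory chain. Beta-oxidation shortens fatty acids to the same acetyl-CoA, after carnitine palmitoyltransferases have carried the acyl groups across the mitochondrial membranes. Cleavage-stage mouse embryos are known for using pyruvate rather than glucose as their main fuel, and for taking up glucose as they form the blastocyst.

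Each library was made from polyadenylated RNA of 10 mouse morulae by full-length cDNA amplification (SMART-Seq v4 PLUS kit). All embryos came from superovulated oocytes fertilised in vitro, were injected between 3 and 6 h after insemination, grown in KSOM medium and collected at 72 h. The injected antisense oligonucleotide (ASO), a short strand that pairs with its target RNA, was directed at Mettl3 in 5 libraries (Mettl3-ASO) and had no target in the other 5 (ASO-Control). In both groups replicates 3 to 5 carry a label of batch 2 and replicates 1 and 2 carry none, and the latter are called untagged below. The strain is given as ICR for the untagged libraries, and no strain is given for batch 2. Mettl3 encodes the methyltransferase that places N6-methyladenosine, a methyl mark on adenosine, in messenger RNA, and the series' title asks what it does for mitochondria and for epigenetic regulation before implantation.

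Total expected counts, estimates of reads per gene, were 9905830 to 13530284 in untagged libraries and 21412857 to 32327283 in batch 2. Mettl3 itself stood at 244 to 446 expected counts in the 5 ASO-Control libraries and at 0 to 2 in the 5 Mettl3-ASO libraries, as their labels state. Defining transcripts of the morula and early blastocyst lineages summed to 301 to 1173 TPM (transcripts, scaled to a common sum per library) in ASO-Control and 238 to 978 TPM in Mettl3-ASO, and 5 of 8 tested fell while 1 rose. Markers of the two-cell stage summed to 3.06 to 11.97 TPM in ASO-Control and 446 to 1911 TPM in Mettl3-ASO, and 7 of 7 rose. Oocyte markers summed to 3.09 to 7.29 TPM against 9.59 to 27.5 TPM, cumulus markers to 1.57 to 4.10 TPM against 2.69 to 7.33 TPM, and sperm markers to 0.49 to 2.23 TPM against 0.28 to 3.28 TPM. The cumulus gene Has2 was at 0 in every library, and 6 of 7 cumulus markers never reached 1 FPKM. Of the oocyte markers 2 were tested and rose, and of the cumulus markers 1, Amhr2, was tested and rose. Mettl3-ASO replicate 1 stood nearest to the controls for many of the genes below, and the counts over the set are given with and without it.

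Most genes of this set stood lower after Mettl3-ASO. Of the 40 tested genes, 21 fell and 3 rose, and 16 did not pass the test (edgeR quasi-likelihood test, adjusted p under 0.05 over all 9522 tested genes). Among all tested genes 49.4% passed the test, 24.0% with lower and 25.4% with higher levels, so that 52.5% of these genes against 24.0% of all genes fell, and 7.5% against 25.4% rose. The median log2 fold change of the 40 was −0.38, beside 0.01 over all tested genes, and 31 of 40 had a negative value. A fall of 2-fold or more was called for 8 of the 40, and for 8.67% of all tested genes. In 11 of the 40 every Mettl3-ASO library lay below every ASO-Control library in FPKM, against 10.6% of all tested genes, and in 0 of the 40 did every Mettl3-ASO library lie above, against 15.0%. Without Mettl3-ASO replicate 1 the counts were 23 lower and 1 higher, with a median of −0.55. By role, that left 3 of 6 exchange genes lower and 0 higher, 6 of 12 beta-oxidation genes lower and 0 higher, and the same counts as before in the other 4 roles. The number that rose depended on single libraries and ranged from 0 (without Mettl3-ASO replicate 3, or ASO-Control replicate 2 or 3) through 1 (without Mettl3-ASO replicate 1, or ASO-Control replicate 1 or 5) to 4 (without ASO-Control replicate 4). In pooled embryos, fewer cells of a type and less RNA per cell cannot be told apart. The part of the lineage, two-cell, oocyte and cumulus markers in these changes was not tested. The labels do not say whether libraries came from separate fertilisations, so the spread that p-values measure is that between libraries and may be technical.

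**Figure D1:**
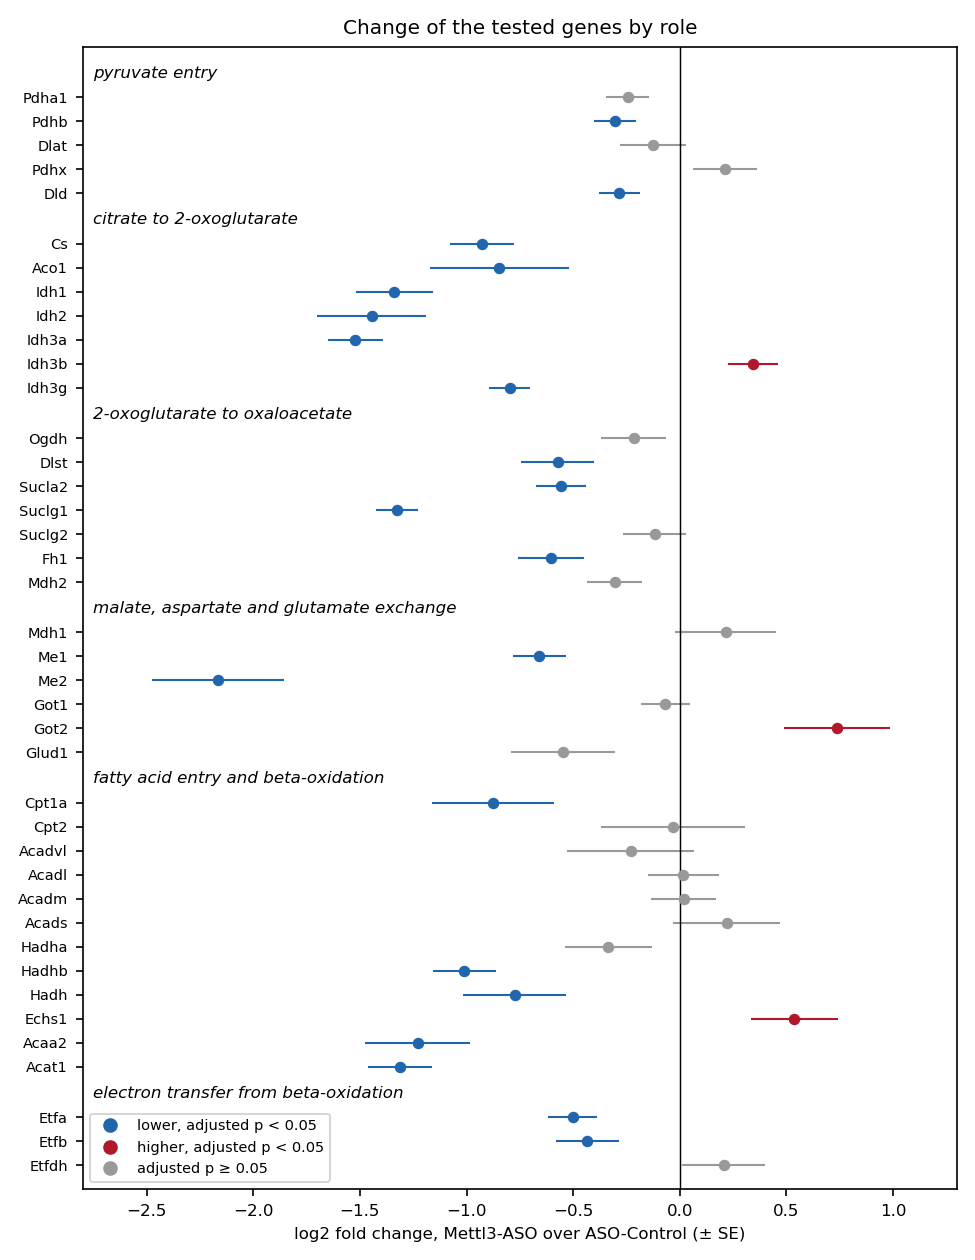
Log2 fold change of Mettl3-ASO over ASO-Control (x axis, ± SE, 5 libraries a group) for the 40 tested genes, ordered by role on the y axis, with blue for genes that fell, red for genes that rose and grey for genes that did not pass the test. The values run from −2.16 for Me2 to 0.74 for Got2, and the genes between citrate and 2-oxoglutarate lie farthest to the left as a role, with a median of −0.93.

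Pyruvate entry had the smallest median change of the 6 roles. Among 5 tested, 2 fell, 0 rose and the median log2 fold change was −0.24. Pdhb, the beta subunit of the pyruvate dehydrogenase decarboxylase, stood at 423, 433, 461, 461 and 432 FPKM in ASO-Control replicates 1 to 5 and at 376, 403, 379, 349.7 and 332 FPKM in Mettl3-ASO replicates 1 to 5. The groups did not overlap, but the difference was small (log2 fold change −0.31 ± 0.10 SE, adjusted p = 0.0203). Dld, the dihydrolipoyl dehydrogenase that pyruvate dehydrogenase shares with the 2-oxoglutarate dehydrogenase complex, gave 114, 125, 111, 115 and 121 FPKM in ASO-Control and 110.4, 101, 101, 88.8 and 96.4 FPKM in Mettl3-ASO. All 5 Mettl3-ASO libraries lay below the lowest control (log2 fold change −0.28 ± 0.10 SE, adjusted p = 0.0278). Pdha1, the alpha subunit of the decarboxylase, did not pass the test (log2 fold change −0.24 ± 0.10 SE, adjusted p = 0.0630), with 160.2 to 206 FPKM in ASO-Control and 143 to 174 FPKM in Mettl3-ASO. With replicate numbers as a block its adjusted p was 0.0274, and without Mettl3-ASO replicate 2 it was 0.0313. The acetyltransferase core Dlat (−0.12 ± 0.15) and the component that binds Dld to it, Pdhx (0.21 ± 0.15), did not pass either. Pcx, pyruvate carboxylase, which makes oxaloacetate from pyruvate, was listed at 0.05 to 0.32 FPKM over the 10 libraries and was not tested.

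The 2 calls in pyruvate entry were lost under several alternatives. Pdhb missed the threshold without ASO-Control replicate 3 (adjusted p = 0.0506), without Mettl3-ASO replicate 4 (0.0564) or with no batch term (0.0773). Dld missed it without ASO-Control replicate 2, ASO-Control replicate 5 or Mettl3-ASO replicate 4 (0.0743 to 0.0820). Dld also missed it in batch 2 alone, with no batch term, with upper-quartile scaling, with no filter and in limma with a pseudocount of 0.1 or 1 (adjusted p = 0.0509 to 0.0803). Of the 50-base windows of the Pdhb transcript, 30.3% also occur in annotated transcripts of other genes, led by Gm6123, and its expected counts were whole in every library. A whole count does not show whether reads of those other genes were counted in it. For Pdha1, 16.1% of exon bases lie opposite exons of Map3k15 on the other strand. No source used here says whether reads were counted by strand, and without strand the reads of the pair cannot be told apart.

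From citrate to 2-oxoglutarate, all 7 genes passed the test, 6 of them lower. These are the enzymes that join acetyl-CoA to oxaloacetate and carry citrate through isocitrate to the first oxidation of the cycle. The median log2 fold change was −0.93. Idh3a, the catalytic alpha subunit of the NAD-dependent isocitrate dehydrogenase of the mitochondrion (GRCm38 chromosome 9, 54586334 to 54604661, plus strand), stood at 190.2, 178, 165, 174 and 142 FPKM in ASO-Control replicates 1 to 5. In Mettl3-ASO replicates 1 to 5 it stood at 93.5, 53.5, 60.5, 55.1 and 46.7 FPKM. The highest Mettl3-ASO library was below the lowest control, a 2.87-fold lower level (log2 fold change −1.52 ± 0.13 SE, adjusted p = 2.82e-06).

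Idh3g, the regulatory gamma subunit of the same enzyme (chromosome X, 73778963 to 73786897, minus strand), gave 354, 294, 314, 297 and 296 FPKM in ASO-Control and 200, 165, 198, 197 and 163 FPKM in Mettl3-ASO. These groups did not overlap either, and the fall was 1.74-fold (log2 fold change −0.80 ± 0.10 SE, adjusted p = 3.77e-05). Idh3b, the beta subunit, went the other way. It stood at 64.3, 59.7, 57.8, 67.3 and 56.5 FPKM in ASO-Control and at 102, 86.9, 79.3, 70.4 and 65.0 FPKM in Mettl3-ASO, so that 4 of 5 Mettl3-ASO libraries lay above the highest control and replicate 5 lay within the controls (log2 fold change 0.34 ± 0.12 SE, adjusted p = 0.0268). The rise missed the threshold without Mettl3-ASO replicate 3 or any one of ASO-Control replicates 1 to 3 (adjusted p = 0.0524 to 0.0731). It also did so with no filter (0.161) and in batch 2 alone (0.281).

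The promoter of Idh3g is shown because the gene fell while the partner subunit Idh3b rose, and because its window holds the core letters of the zinc finger factor YY1. It is the RefSeq window of GRCm38.p6 from 250 bases before to 50 bases after the start site, at chrX:73786848-73787147, minus strand, 5′ to 3′, with the AAGATGG match in capitals:
Idh3g: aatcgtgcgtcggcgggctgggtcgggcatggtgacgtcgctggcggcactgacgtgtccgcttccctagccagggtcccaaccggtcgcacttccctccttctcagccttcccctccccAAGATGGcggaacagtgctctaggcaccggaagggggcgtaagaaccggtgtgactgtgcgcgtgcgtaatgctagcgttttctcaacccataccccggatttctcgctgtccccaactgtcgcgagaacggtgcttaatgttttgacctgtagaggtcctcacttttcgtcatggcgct
AAGATGG, on either strand, is in 6.34% of 32851 such windows of all genes. Among these 41 genes, 37 have a window, 45 windows in all. The letters are in 6.67% of these 45 windows, in 3 genes, Acadvl, Hadha and Idh3g. A match says only that the letters are there.

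Idh1, the cytosolic NADP-dependent isocitrate dehydrogenase, stood at 135, 97.4, 98.9, 81.4 and 98.3 FPKM in ASO-Control and 64.4, 33.9, 44.5, 42.4 and 25.6 FPKM in Mettl3-ASO. The groups did not overlap (log2 fold change −1.34 ± 0.18 SE, adjusted p = 7.85e-05). Its mitochondrial counterpart Idh2 fell to a like extent (log2 fold change −1.45 ± 0.25 SE, adjusted p = 5.47e-04), from a mean of 41.6 ± 9.27 to 16.5 ± 10.2 FPKM (SD, n = 5), although Mettl3-ASO replicate 1, at 34.2 FPKM, lay among the controls. Cs, citrate synthase, which opens the cycle, gave 62.4, 43.8, 31.0, 35.7 and 28.7 FPKM in ASO-Control and 35.8, 27.3, 17.4, 19.4 and 12.04 FPKM in Mettl3-ASO. Within untagged libraries and within batch 2 the groups were apart for Cs, and the untagged libraries of both groups were higher than those of batch 2 (log2 fold change −0.93 ± 0.15 SE, adjusted p = 3.04e-04). Aco1, the cytosolic aconitase that also serves as an iron-sensing RNA-binding protein, was low at 1.93 to 4.32 FPKM in ASO-Control and 0.660 to 2.88 FPKM in Mettl3-ASO. Its fall had the largest p of the 6 (log2 fold change −0.85 ± 0.33 SE, adjusted p = 0.0463) and was lost under several alternatives. Leaving out Mettl3-ASO replicate 2, 3 or 5, or any ASO-Control replicate except 2, its adjusted p was 0.0638 to 0.146. It was 0.0527 to 0.0904 with upper-quartile or total count scaling, in limma, with no batch term and in batch 2 alone.

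**Figure D2:**
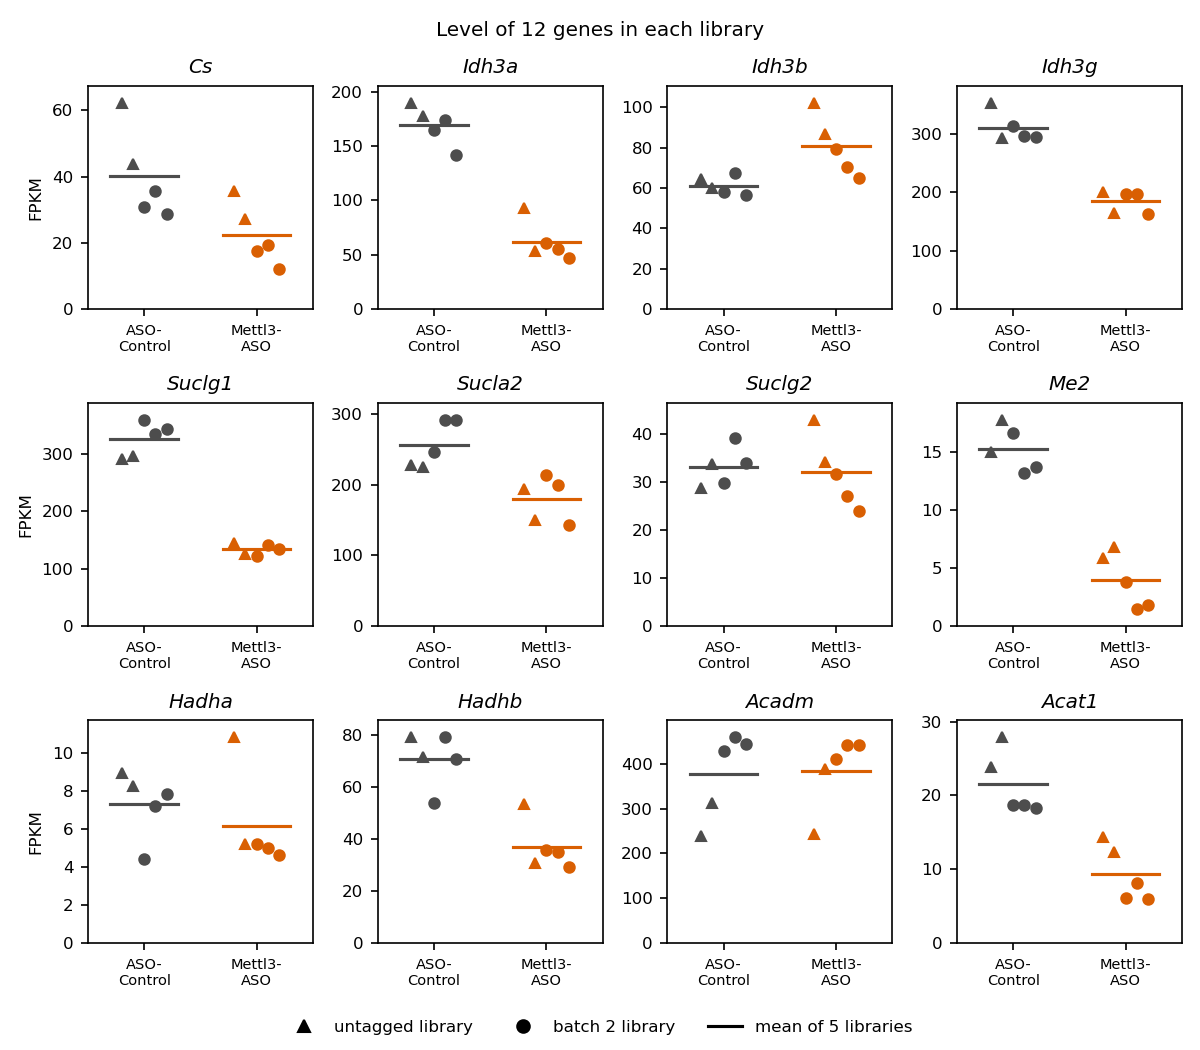
FPKM of 12 genes in each of the 10 libraries (y axes from 0, ASO-Control in grey, Mettl3-ASO in orange, triangles for untagged and circles for batch 2 libraries, lines for the mean of 5 libraries). Idh3a, Idh3g, Suclg1, Sucla2, Me2, Hadhb and Acat1 show no overlap between groups, Idh3b lies higher in 4 of 5 Mettl3-ASO libraries than in any control, and Suclg2, Hadha and Acadm overlap.

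From 2-oxoglutarate to oxaloacetate, 4 of 7 genes fell, 0 rose and the median was −0.56 on the log2 scale. Suclg1, the alpha subunit shared by both forms of succinyl-CoA synthetase (chromosome 6, 73248382 to 73276911, plus strand), had the smallest p of the whole set. It stood at 291, 297, 359.9, 335 and 344 FPKM in ASO-Control and at 145, 126, 122, 142 and 134 FPKM in Mettl3-ASO. The 5 Mettl3-ASO libraries lay close together, far below the lowest control (2.50-fold lower, log2 fold change −1.32 ± 0.10 SE, adjusted p = 1.42e-06). The beta subunits define which nucleotide the enzyme charges. Sucla2, the beta subunit of the ADP-forming enzyme, gave 228, 225, 247, 293 and 291 FPKM in ASO-Control and 194, 149.8, 213, 200.1 and 143 FPKM in Mettl3-ASO, again without overlap (log2 fold change −0.56 ± 0.12 SE, adjusted p = 0.00191). Suclg2, the beta subunit of the GDP-forming enzyme, gave 28.8, 33.7, 29.8, 39.1 and 34.0 FPKM against 43.0, 34.2, 31.7, 27.0 and 23.9 FPKM, and the groups overlapped (log2 fold change −0.12 ± 0.15 SE, adjusted p = 0.534). In Suclg2, 21.8% of 50-base windows also occur in transcripts of another gene, Gm15163.

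Fh1, fumarase, which hydrates fumarate to malate, stood at 55.6, 57.4, 48.1, 59.0 and 67.2 FPKM in ASO-Control and 46.1, 34.5, 49.8, 32.9 and 32.4 FPKM in Mettl3-ASO. Replicate 3 of Mettl3-ASO reached into the control range and the other 4 did not (log2 fold change −0.60 ± 0.16 SE, adjusted p = 0.00637). Dlst, the succinyltransferase core of the 2-oxoglutarate dehydrogenase complex, was lower as well (log2 fold change −0.57 ± 0.17 SE, adjusted p = 0.0146), at 5.72 to 12.2 FPKM in ASO-Control and 3.91 to 9.62 FPKM in Mettl3-ASO, but its adjusted p was 0.123 within batch 2 alone and 0.0517 with no batch term. Ogdh, the decarboxylase of that complex, did not pass (log2 fold change −0.22 ± 0.15 SE, adjusted p = 0.263). Mdh2, the mitochondrial malate dehydrogenase that closes the cycle, had the highest control level of the 41 genes, 599 ± 83.4 FPKM in ASO-Control and 500.5 ± 83.8 FPKM in Mettl3-ASO (SD, n = 5). It did not pass the test (log2 fold change −0.31 ± 0.13 SE, adjusted p = 0.0670). With replicate numbers as a block the adjusted p of Mdh2 was 0.0226, and without ASO-Control replicate 1, Mettl3-ASO replicate 2 or Mettl3-ASO replicate 3 it was 0.0250 to 0.0443. With no filter it was 0.0198, and Mdh2 thus passed under 5 of 23 alternatives.

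In malate, aspartate and glutamate exchange, 2 of 6 genes fell, 1 rose and 3 did not pass, with a median of −0.31. Me2, the mitochondrial malic enzyme that turns malate back into pyruvate, had the largest fall of the 40 tested genes. It stood at 15.1, 17.8, 16.7, 13.2 and 13.7 FPKM in ASO-Control and 5.84, 6.81, 3.80, 1.46 and 1.84 FPKM in Mettl3-ASO. No library overlapped, the fitted fall was 4.48-fold (log2 fold change −2.16 ± 0.31 SE, adjusted p = 1.24e-04), and the 2 untagged Mettl3-ASO libraries were higher than the 3 of batch 2. Me1, the cytosolic malic enzyme and a source of NADPH, gave 32.2, 34.1, 16.3, 19.1 and 20.2 FPKM against 23.1, 16.8, 11.99, 13.5 and 13.2 FPKM. Within each batch all Mettl3-ASO libraries lay below all controls (log2 fold change −0.66 ± 0.13 SE, adjusted p = 9.49e-04). For Me1, 32.8% of 50-base windows also occur in transcripts of other genes, led by Gm7049.

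Got2, the mitochondrial aspartate aminotransferase of the malate-aspartate shuttle, rose. Its levels were 8.45, 4.39, 3.73, 5.12 and 4.30 FPKM in ASO-Control and 15.4, 5.51, 8.94, 7.72 and 7.19 FPKM in Mettl3-ASO. In batch 2 the groups were apart, and in the untagged libraries they overlapped (log2 fold change 0.74 ± 0.25 SE, adjusted p = 0.0250). The rise missed the threshold without Mettl3-ASO replicate 1 or 3, or ASO-Control replicate 2, 3 or 5 (adjusted p = 0.0510 to 0.0838), or in limma with a pseudocount of 5 (0.0509). Of its 50-base windows 47.2% also occur in transcripts of other genes, led by Gm10874 and Got2-ps1, and its expected counts were whole in every library. As for Pdhb, whole counts do not show whether reads of those other genes were counted. Got1, the cytosolic form, did not pass the test (log2 fold change −0.07 ± 0.11 SE, adjusted p = 0.649). Mdh1, the cytosolic malate dehydrogenase of the shuttle, did not pass over all libraries (log2 fold change 0.22 ± 0.24 SE, adjusted p = 0.476). Without ASO-Control replicate 4, which at 84.4 FPKM lay above every other library, its log2 fold change was 0.53 and its adjusted p 0.0151. Glud1, glutamate dehydrogenase, which makes 2-oxoglutarate from glutamate, did not pass (log2 fold change −0.55 ± 0.25 SE, adjusted p = 0.0800). Its adjusted p was 0.00719 with replicate numbers as a block, and without Mettl3-ASO replicate 1 its log2 fold change was −0.84 with an adjusted p of 0.00520. In DESeq2 the adjusted p of Glud1 was 0.0382, in batch 2 alone 0.0246 and with no filter 0.00217. Glud1 thus passed under 5 of 23 alternatives.

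In fatty acid entry and beta-oxidation, 5 of 12 genes fell, 1 rose and 6 did not pass, with a median of −0.28. The falls lay at the entry step and in the later reactions, while none of the 4 chain-length-specific acyl-CoA dehydrogenases passed. Acat1, the mitochondrial acetoacetyl-CoA thiolase (chromosome 9, 53580522 to 53610382, minus strand), stood at 23.9, 28.0, 18.7, 18.6 and 18.3 FPKM in ASO-Control and 14.3, 12.4, 6.10, 8.09 and 5.90 FPKM in Mettl3-ASO. The groups did not overlap, and the level was 2.49-fold lower (log2 fold change −1.31 ± 0.15 SE, adjusted p = 2.44e-05). Acaa2, the mitochondrial thiolase that releases acetyl-CoA at the end of each round, gave 80.0, 55.6, 65.5, 87.4 and 72.8 FPKM in ASO-Control and 64.2, 23.1, 31.6, 26.4 and 20.7 FPKM in Mettl3-ASO. Mettl3-ASO replicate 1 lay among the controls and the other 4 lay below them (log2 fold change −1.23 ± 0.25 SE, adjusted p = 0.00134). Hadh, the dehydrogenase for short and medium 3-hydroxyacyl chains, fell with wide overlap, at 24.7 to 58.0 FPKM in ASO-Control and 13.7 to 49.96 FPKM in Mettl3-ASO (log2 fold change −0.77 ± 0.24 SE, adjusted p = 0.0174). Cpt1a, the carnitine palmitoyltransferase of the outer membrane and the regulated gate for long-chain fatty acids, was low at 2.47 to 5.74 FPKM in ASO-Control and 1.13 to 4.70 FPKM in Mettl3-ASO (log2 fold change −0.88 ± 0.29 SE, adjusted p = 0.0227). The call on Cpt1a was lost without Mettl3-ASO replicate 5, or ASO-Control replicate 1 or 3 (adjusted p = 0.0519 to 0.0594), or in limma with a pseudocount of 5 (0.0505), and without Mettl3-ASO replicate 1 the log2 fold change was −1.21.

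Echs1, the short-chain enoyl-CoA hydratase of the second reaction, was the gene of this role that rose. Its levels were 26.0, 25.7, 20.2, 43.0 and 21.3 FPKM in ASO-Control and 52.7, 37.5, 43.5, 40.5 and 30.3 FPKM in Mettl3-ASO. The groups were apart but for ASO-Control replicate 4, which lay among the Mettl3-ASO libraries (log2 fold change 0.54 ± 0.20 SE, adjusted p = 0.0441). The call stood without ASO-Control replicate 4 (adjusted p = 0.00158) or Mettl3-ASO replicate 5 (0.0291) and was lost without any one of the other 8 libraries (0.0587 to 0.103). It was also lost in batch 2 alone (0.275) and with no batch term (0.0600).

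The acyl-CoA dehydrogenases take the first reaction and are named by the chain they accept. Acadvl, for very long chains, had a log2 fold change of −0.23 ± 0.30 SE over all libraries and −0.60 without Mettl3-ASO replicate 1 (adjusted p = 0.0597), and 42.9% of its exon bases lie opposite exons of Dvl2. As for Pdha1, without strand the reads of this pair cannot be told apart. Acadl, for long chains, stood at 75.3 to 126 FPKM in ASO-Control and 66.6 to 168 FPKM in Mettl3-ASO (0.02 ± 0.17). Acadm, for medium chains, was the most abundant gene of the role and stood at 239, 313, 428, 461 and 443 FPKM in ASO-Control and 244, 387, 409.8, 441 and 442 FPKM in Mettl3-ASO. Its levels separated by batch rather than by group, with the untagged libraries lowest in both groups (log2 fold change 0.02 ± 0.15 SE, adjusted p = 0.932). Acads, for short chains, gave 0.22 ± 0.25. Cpt2, the carnitine palmitoyltransferase of the inner membrane, gave −0.03 ± 0.34 over all libraries and −0.45 without Mettl3-ASO replicate 1 (adjusted p = 0.231).

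Hadha and Hadhb encode the alpha and beta subunits of the mitochondrial trifunctional protein, which carries the last 3 reactions for long chains, and they are transcribed in opposite directions from neighbouring start sites. Hadhb (chromosome 5, 30155248 to 30184593, plus strand) stood at 79.3, 71.6, 53.7, 79.5 and 70.7 FPKM in ASO-Control and 53.5, 30.7, 35.7, 35.0 and 29.1 FPKM in Mettl3-ASO. Every Mettl3-ASO library lay below every control, by a narrow margin for replicate 1 and a wide one for the other 4 (2.01-fold lower, log2 fold change −1.01 ± 0.15 SE, adjusted p = 1.35e-04). Of the 50-base windows of Hadhb, 62.4% also occur in transcripts of Gm13910 and Gm9108, and its expected counts were whole in every library. Here too, whole counts do not show whether reads of those genes were counted. Hadha (chromosome 5, 30118304 to 30155162, minus strand) stood at 8.93, 8.25, 4.40, 7.22 and 7.85 FPKM in ASO-Control and 10.9, 5.22, 5.21, 5.0 and 4.61 FPKM in Mettl3-ASO. The groups overlapped and the test was not passed (log2 fold change −0.33 ± 0.20 SE, adjusted p = 0.190), whereas without Mettl3-ASO replicate 1 the log2 fold change was −0.49 with an adjusted p of 0.0477.

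The promoters of Hadhb and Acadm are shown because the former serves a gene that fell beside a neighbour that did not pass the test, and the latter an abundant gene that did not pass. Both are RefSeq windows of GRCm38.p6, printed 5′ to 3′ on the gene's strand. Between the RefSeq start sites of Hadha and Hadhb lie 272 bases, against 85 between the GENCODE ends given above, and the RefSeq windows share 228 bases, chr5:30155003-30155230, which are in capitals in the window of Hadhb (chr5:30155003-30155302, plus strand). In the window of Acadm (chr3:153944594-153944893, minus strand) the capitals mark TGACCTT, the reverse complement of the oestrogen-related receptor (ERR) core AAGGTCA, and CATGCGC, the reverse complement of the NRF1 core GCGCATG:
Hadhb: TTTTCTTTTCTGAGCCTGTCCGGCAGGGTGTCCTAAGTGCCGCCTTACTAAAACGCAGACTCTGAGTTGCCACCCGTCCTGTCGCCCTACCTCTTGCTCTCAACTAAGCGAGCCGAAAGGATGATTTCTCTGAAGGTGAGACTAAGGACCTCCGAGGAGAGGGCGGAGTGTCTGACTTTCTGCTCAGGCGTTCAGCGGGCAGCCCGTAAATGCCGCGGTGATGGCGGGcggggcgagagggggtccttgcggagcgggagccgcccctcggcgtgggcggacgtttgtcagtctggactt
Acadm: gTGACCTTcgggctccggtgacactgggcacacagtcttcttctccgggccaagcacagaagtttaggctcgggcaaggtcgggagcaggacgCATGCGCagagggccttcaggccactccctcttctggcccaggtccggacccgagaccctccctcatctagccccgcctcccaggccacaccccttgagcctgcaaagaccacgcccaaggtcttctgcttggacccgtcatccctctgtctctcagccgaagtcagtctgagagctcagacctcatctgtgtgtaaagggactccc
AAGGTCA, on either strand, is in 4.72% of all 32851 windows and 6.67% of the 45 windows of this set, in 3 genes, Acadm, Got1 and Ogdh. GCGCATG is in 3.91% of all windows and 13.3% of the 45, in 5 genes, Acadm, Etfa, Etfdh, Glud1 and Ogdh. CGGAAGT, the core of the ETS factor GABPA, is in 6.42% of all windows and 6.67% of the 45, in 3 genes, Cpt2, Dlst and Mdh2. The 4 motifs are different strings of 7 bases on both strands, so that no match counts for 2 motifs, although matches can overlap in part. Me2, Acat1, Acaa2 and Idh3a have no window in the table.

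Electron transfer from beta-oxidation had 2 of 3 genes lower, with a median of −0.43. The electron transfer flavoprotein takes electrons from the acyl-CoA dehydrogenases and passes them to ubiquinone through its own oxidoreductase. Etfa, its alpha subunit, stood at 346, 362, 438, 393 and 475 FPKM in ASO-Control and 338, 250.5, 317, 316 and 245 FPKM in Mettl3-ASO. The groups did not overlap, and replicate 1 of Mettl3-ASO lay just under the lowest control (log2 fold change −0.50 ± 0.12 SE, adjusted p = 0.00320). Etfb, the beta subunit, gave 463, 505, 557, 634 and 578 FPKM against 530.2, 284, 494, 472 and 316 FPKM, with overlap in 3 of 5 Mettl3-ASO libraries (log2 fold change −0.43 ± 0.15 SE, adjusted p = 0.0257). The fall of Etfb was lost without Mettl3-ASO replicate 5, or ASO-Control replicate 2, 4 or 5 (adjusted p = 0.0533 to 0.0572). It was also lost with upper-quartile or total count scaling, in limma with each of the 3 pseudocounts and with no batch term (adjusted p = 0.0590 to 0.0794). Of its 50-base windows 67.3% also occur in transcripts of Gm45233. Etfdh, the oxidoreductase, did not pass (log2 fold change 0.21 ± 0.20 SE, adjusted p = 0.403).

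The ratio of partner transcripts did not overlap between the groups in 5 of the 12 pairs examined, and in 28.1% of all pairs of tested genes. These ratios of FPKM are given per library as a description, with no test, and hold the same libraries as the fits above. The ratio of Idh3a to Idh3b was 2.51 to 2.97 in ASO-Control and 0.616 to 0.913 in Mettl3-ASO, and that of Idh3g to Idh3b was 4.42 to 5.51 against 1.90 to 2.80. On the FPKM scale the alpha subunit transcript thus stood above the beta subunit transcript in all 5 control libraries, and below it in all 5 Mettl3-ASO libraries. Suclg1 to Suclg2 was 8.58 to 12.1 in ASO-Control and 3.37 to 5.63 in Mettl3-ASO. Hadha to Hadhb was 0.0819 to 0.115 in ASO-Control and 0.143 to 0.203 in Mettl3-ASO, and Me1 to Me2 was 0.978 to 2.14 against 2.46 to 9.25. The groups overlapped for the other 7 pairs, Sucla2 to Suclg2, Pdha1 to Pdhb, Pdhx to Dlat, Etfa to Etfb, Got1 to Got2, Mdh1 to Mdh2 and Idh1 to Idh2.

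**Figure D3:**
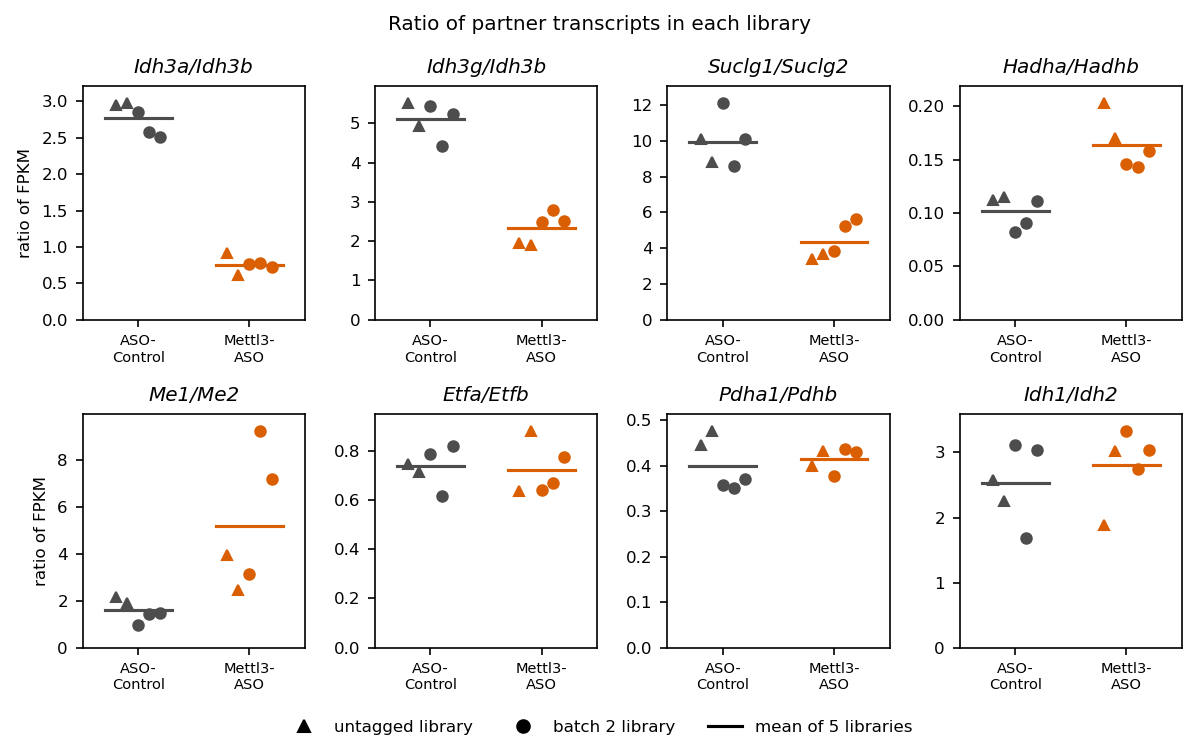
Ratio of the FPKM of partner transcripts (y axes from 0) in each of the 10 libraries for 8 of the 12 pairs, with triangles for untagged and circles for batch 2 libraries and lines for the mean of 5 libraries. Idh3a/Idh3b is at least 2.51 in ASO-Control and at most 0.913 in Mettl3-ASO, and Hadha/Hadhb is at most 0.115 and at least 0.143, while Etfa/Etfb, Pdha1/Pdhb and Idh1/Idh2 overlap.

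Summed over all 41 genes, transcripts made up 4789 ± 278 TPM in ASO-Control and 3678 ± 463 TPM in Mettl3-ASO (SD, n = 5). The range was 4439 to 5131 TPM in the controls and 2999 to 4269 TPM after Mettl3-ASO, so that every Mettl3-ASO library lay below every control. By role, the groups were apart for the steps from citrate to 2-oxoglutarate, with 652 to 900.0 TPM against 322 to 575 TPM, and for those from 2-oxoglutarate to oxaloacetate, with 1211 to 1514 TPM against 709 to 1068 TPM. They overlapped for pyruvate entry (746 to 891 TPM against 614 to 824 TPM), malate, aspartate and glutamate exchange (150 to 214 TPM against 134 to 225 TPM), fatty acid entry and beta-oxidation (687 to 888 TPM against 630.1 to 798 TPM) and electron transfer (855 to 1057 TPM against 569 to 951 TPM). A sum is led by its most abundant genes, which in the controls were Mdh2 and Suclg1 between 2-oxoglutarate and oxaloacetate and Acadm in beta-oxidation. By level in the controls, Mdh2 (599 ± 83.4 FPKM), Etfb (547 ± 65.9), Pdhb (442 ± 18.0), Etfa (403 ± 53.5) and Acadm (377 ± 96.4) led the 41 genes. The ranges of mean ± SD of neighbours in that order overlapped, except for Etfb and Pdhb. TPM is a share of each library, so a sum also moves with the rest of the transcripts.

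**Figure D4:**
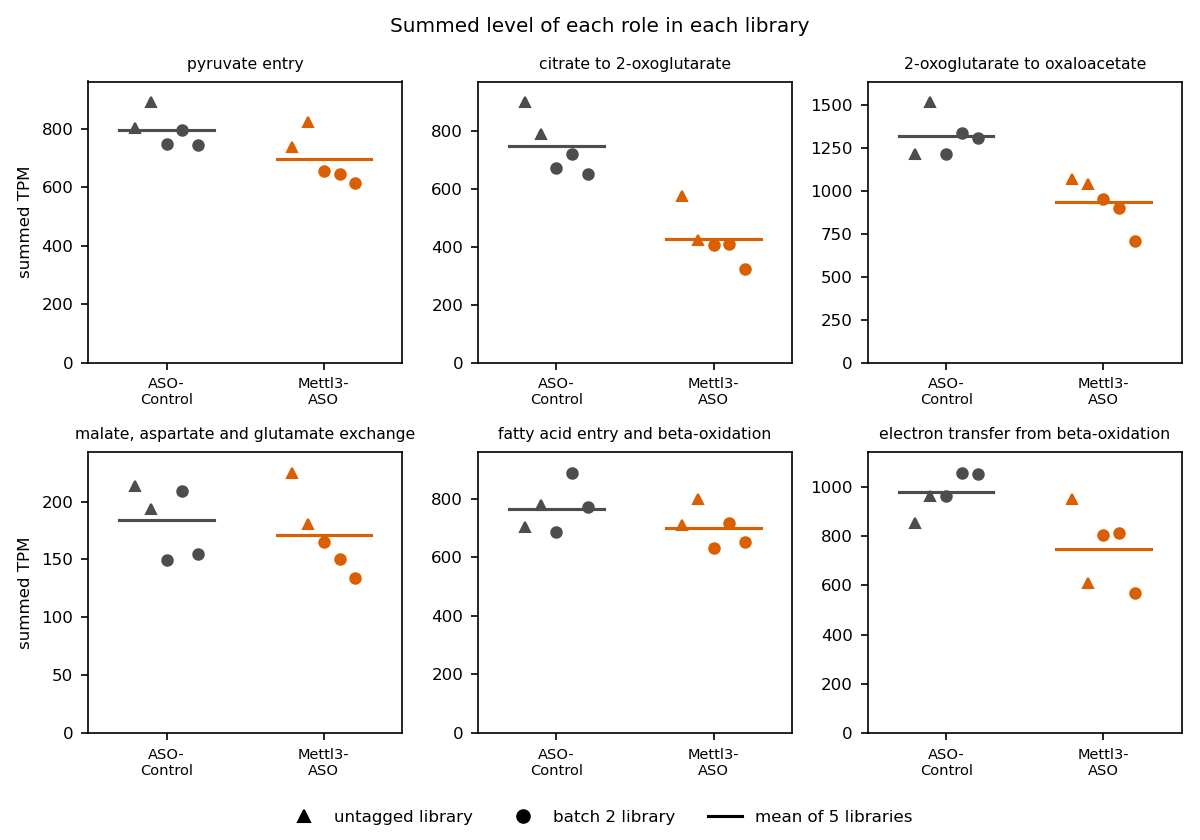
Summed TPM of the genes of each role (y axes from 0) in each of the 10 libraries, with triangles for untagged and circles for batch 2 libraries and lines for the mean of 5 libraries. The groups are apart for the steps from citrate to 2-oxoglutarate (at least 652 against at most 575 TPM) and from 2-oxoglutarate to oxaloacetate (at least 1211 against at most 1068 TPM), and overlap for the other 4 roles.

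The untagged libraries and batch 2 were also fitted alone. In batch 2, with 3 libraries a group, 19 of the 40 genes fell and 1 rose, Got2, against 18.9% and 20.2% of all tested genes, and the median was −0.44. In the untagged libraries, with 2 a group, 2 fell, Idh3a and Suclg1, and 0 rose, against 2.47% and 3.79% of all tested genes, and the median was −0.32. The sign was the same in both for 33 of the 40, and for 8146 of all 9522 tested genes, a like share. Idh3a gave −1.39 in the untagged libraries and −1.59 in batch 2, and Suclg1 gave −1.17 and −1.41. For Me2 the values were −1.41 and −2.65, for Acaa2 −0.72 and −1.55, and for Suclg2 0.25 and −0.35. In edgeR's test of the interaction of group and batch, 0% of all tested genes passed the adjusted threshold. An unadjusted p under 0.05 was found for 159 of the 9522 tested genes and for 2 of the 40, Me2 and Suclg2. A different change in the 2 batches was thus not shown for either gene.

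**Figure D5:**
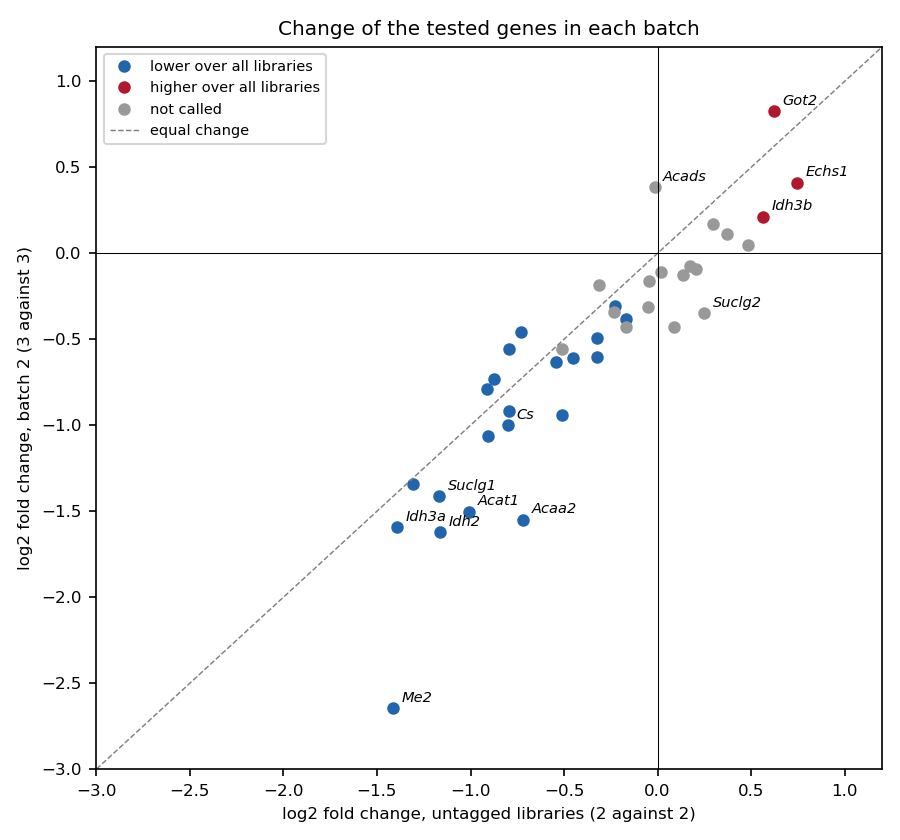
Log2 fold change of the 40 tested genes in the untagged libraries (x axis, 2 against 2) and in batch 2 (y axis, 3 against 3), with blue for genes that fell over all libraries, red for genes that rose and grey for the rest, and a dashed line of equal change. The sign is the same for 33 of 40 genes, beside 8146 of all 9522 tested genes, and Me2 lies lowest at −1.41 and −2.65.

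Mettl3-ASO replicate 1 was the highest of its group for 17 of the 21 genes that fell, and at or above the lowest control for 9 of them. Mettl3-ASO replicate 5 was the lowest of its group for 14. Replicate 1 also had the lowest two-cell marker sum of its group, 446 TPM, and the highest morula marker sum, 978 TPM, and its own Mettl3 count was 0. Whether these values bear on each other was not tested.

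Features of the transcripts that played no part in choosing the genes were described too. GGACT, a common form of the sequence in which N6-methyladenosine is written, occurred at a median of 0.93 per kilobase in 1 annotated transcript of each of the 41 genes and 1.02 per kilobase over 9051 tested genes. The median was 1.14 in the 21 genes that fell, 0.64 in the 3 that rose and 0.89 in the 16 that did not pass. Per kilobase, Sucla2 had the highest value of the 41 at 2.69, and Idh2 and Fh1, which also fell, had 0. These are counts of letters, and no methylation was measured here. The mean transcript length that goes into FPKM varied by more than 5 bases across libraries for 3 of the 41 genes, Ogdh, Me1 and Hadhb, and by less than 1% in each. Expected counts were whole in every library for 40 of the 41 genes, the exception being Pdha1. Whole counts do not show that no read came from another gene with shared windows.

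Around these genes, a list of 73 others was examined for carriers, cofactor enzymes, regulators and further enzymes of the same or neighbouring pathways. Of these 50 were tested, and 13 fell and 13 rose, which is 26.0% each way beside 24.0% and 25.4% of all tested genes, with a median of −0.15. Among genes that control pyruvate use, all 6 tested genes passed, 5 of them higher. Pdp2, the phosphatase that activates pyruvate dehydrogenase, stood at 10.9, 11.4, 7.42, 10.4 and 7.56 FPKM in ASO-Control and 39.1, 37.1, 18.8, 20.8 and 15.7 FPKM in Mettl3-ASO. The groups did not overlap (log2 fold change 1.34 ± 0.16 SE, adjusted p = 3.84e-05). Mpc2, a subunit of the mitochondrial pyruvate carrier, gave 361 ± 35.4 FPKM in ASO-Control and 616 ± 86.6 FPKM in Mettl3-ASO (SD, n = 5) and did not overlap either (log2 fold change 0.74 ± 0.12 SE, adjusted p = 3.96e-04). The other 4 are named after their values were seen. Pdk3, a kinase that inactivates pyruvate dehydrogenase, rose without overlap (log2 fold change 1.69 ± 0.42 SE, adjusted p = 0.00499), and in batch 2 alone its adjusted p was 0.0504. Ldhb, a lactate dehydrogenase subunit, rose without overlap (log2 fold change 1.80 ± 0.33 SE, adjusted p = 7.86e-04), while Ldha, the other such subunit, fell with overlap (log2 fold change −1.30 ± 0.40 SE, adjusted p = 0.0169, and adjusted p = 0.0585 with no batch term). Mpc1, the partner of Mpc2, rose (log2 fold change 0.32 ± 0.12 SE, adjusted p = 0.0338), and this call was lost without any one of 7 libraries, with no filter, with no batch term and in batch 2 alone.

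Of 10 tested TCA cycle genes outside the 41, 4 fell and 1 rose. Sdhc, a membrane anchor of succinate dehydrogenase, had a mean of 150 ± 21.1 FPKM in ASO-Control and of 71.8 ± 10.5 FPKM in Mettl3-ASO (SD, n = 5), with no overlap (log2 fold change −1.10 ± 0.14 SE, adjusted p = 4.52e-05). The other subunits of that enzyme are named after their values were seen. Sdha fell without overlap (log2 fold change −0.91 ± 0.13 SE, adjusted p = 1.62e-04). Sdhb (−0.14 ± 0.11) and Sdhd (−0.03 ± 0.13) did not pass the test, and their groups overlapped. Dhtkd1, a relative of Ogdh that acts in lysine breakdown, rose from 0.180 to 0.890 FPKM in ASO-Control to 3.24 to 7.88 FPKM in Mettl3-ASO (log2 fold change 3.29 ± 0.39 SE, adjusted p = 3.19e-05). Of 5 genes of lipoate synthesis and attachment, which give Dlat and Dlst their cofactor, 0 fell and 3 rose, led by the lipoyltransferases Lipt2 (log2 fold change 1.26 ± 0.25 SE, adjusted p = 0.00127) and Lipt1 (log2 fold change 0.53 ± 0.18 SE, adjusted p = 0.0243). The rise of Lipt1 was lost without Mettl3-ASO replicate 1 or 4, or ASO-Control replicate 2 or 3 (adjusted p = 0.0533 to 0.0669), with no filter and in batch 2 alone (0.0790 to 0.168). The third was Mcat, named after its values were seen, with an adjusted p of 0.0369 over all libraries and 0.117 without Mettl3-ASO replicate 1. Its call was also lost without Mettl3-ASO replicate 3 or 4, or ASO-Control replicate 1, 2, 3 or 5 (adjusted p = 0.0568 to 0.0857). In limma with each of the 3 pseudocounts, with no batch term and in batch 2 alone its adjusted p was 0.0528 to 0.171. Without Mettl3-ASO replicate 1, 1 of the 5 genes rose, Lipt2.

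Of 7 mitochondrial carriers 2 fell and 1 rose, and those with the smallest p were the dicarboxylate carrier Slc25a10 (log2 fold change −0.83 ± 0.24 SE, adjusted p = 0.0117) and the aspartate-glutamate carrier Slc25a13 (log2 fold change −0.87 ± 0.25 SE, adjusted p = 0.0117). With no batch term their adjusted p was 0.0840 and 0.0531. Without Mettl3-ASO replicate 1, 4 carriers fell, with the citrate carrier Slc25a1 (adjusted p = 0.0158) and Slc25a22 (0.0398) added. The one that rose was Slc25a12, named like these 2 after its values were seen (log2 fold change 0.72 ± 0.23 SE, adjusted p = 0.0186), and without Mettl3-ASO replicate 2 its adjusted p was 0.0826. Of 5 genes of fatty acid activation and carnitine handling, 1 fell and 1 rose. Acsl4, an acyl-CoA synthetase that prefers arachidonate, rose from 7.47 to 19.6 FPKM in ASO-Control to 23.8 to 62.9 FPKM in Mettl3-ASO (log2 fold change 2.07 ± 0.31 SE, adjusted p = 1.57e-04). Crot, the peroxisomal carnitine octanoyltransferase, fell slightly (log2 fold change −0.39 ± 0.14 SE, adjusted p = 0.0365), and this call held without ASO-Control replicate 4 or Mettl3-ASO replicate 5 alone and was lost without any one of the other 8 libraries (adjusted p = 0.0505 to 0.1005). It was lost as well under 9 other alternatives, with an adjusted p of 0.0516 to 0.325. Of 13 further tested enzymes, some of beta-oxidation and some, Gcdh among them, of amino acid breakdown, 4 fell and 2 rose. Gcdh, glutaryl-CoA dehydrogenase, fell without overlap, with 9.82 ± 1.82 FPKM in ASO-Control against 2.76 ± 1.35 FPKM in Mettl3-ASO (SD, n = 5, log2 fold change −1.93 ± 0.22 SE, adjusted p = 2.31e-05), and Acad11, a further acyl-CoA dehydrogenase, rose (log2 fold change 1.07 ± 0.26 SE, adjusted p = 0.00411). Of 4 tested regulators 1 fell, Hif1a, which encodes the oxygen-sensitive subunit of a hypoxia-inducible factor (log2 fold change −0.68 ± 0.22 SE, adjusted p = 0.0203). Without ASO-Control replicate 3 or Mettl3-ASO replicate 4 its adjusted p was 0.0546 to 0.0573, and in batch 2 alone it was 0.0885.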

How the data were processed

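Polyadenylated RNA of mouse morulae was sequenced in 10 libraries of 10 embryos each, 5 ASO-Control and 5 Mettl3-ASO, grouped by their titles. The submitters' processing notes name STAR 2.7.10, RSEM 1.3.3 and the mm10 build; strand use in counting is not given in the sources. The authors deposited RSEM expected counts, which share out reads that fit more than 1 gene. They also deposited TPM values, scaled to a common sum per library, and FPKM values, scaled to transcript length and fragments, with a mean transcript length per gene.

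After rounding to whole numbers, these counts went into edgeR 4.0.16 (R 4.3.3; quasi-likelihood test, TMM scaling, terms for batch and group) for the 9522 genes whose FPKM averaged 1 or more. Adjusted p-values are Benjamini-Hochberg values over those genes, and a gene was called at an adjusted p under 0.05. Standard errors are the log2 fold change divided by the root of the F statistic. Alternatives were median-ratio, upper-quartile and total count scaling, no filter, a minimum mean FPKM of 5, DESeq2 1.42.0, limma 3.58.1 on log2(FPKM + 0.1, 1 or 5), no batch term, a replicate block, each batch alone and each library left out. Total counts of 9905830 to 32327283 per library set the precision, and fragments carry no molecular identifiers, so this covers counting error only. All 8 pairs of libraries of the same group and batch differed beyond counting noise (chi-square at least 19.6 per degree of freedom).

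The titles number replicates 1 to 5 in both groups and do not state pairs. Deviations from the mean of group and batch, in libraries of the same number, correlated at 0.273 for numbers 1 and 2 (equal by construction), 0.174 for number 3, 0.147 for number 4 and 0.105 for number 5. In batch 2, libraries of different number gave −0.182 to 0.0240. All same-number values exceed 0.1, so the numbers were taken to pair the libraries. The fit described above nevertheless has no term for the number, so its calls, standard errors and p-values do not use the pairing. The replicate block is the alternative that does, and under it 24 genes of the set fell, against 21.

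The 41 genes and all lists were chosen with earlier results of these data known. All 41 were named, with a value per library for the 3 called genes of smallest p in each role and for any that rose. From the list of 73 related genes, the 2 called genes of smallest p in each group were named, and a few more where the text says so. Promoter windows came from RefSeq (GRCm38.p6) and matched 37 of the 41 symbols; positions, exon overlaps and transcripts came from GENCODE M21 (GRCm38, the same assembly as mm10).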

Additional observations from a re-analysis of the deposited data

Results flagged for a closer look

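In each group of 5 libraries, the highest or lowest FPKM of each of the 41 genes was compared with the spread of the other 4. In 82 such groups, 14 held a value set apart from the other 4 by more than 0.71 of the group's range. That cut-off flags about 1 in 20 groups by chance where values are independent and normally distributed. The 41 genes were read in the same 10 libraries, so the groups are not separate trials and that rate is no measure for the 14. Of these 14, 10 were in Mettl3-ASO replicate 1. In 9 of them that library was higher than the other 4 of its group. Dlat stood at 15.96 FPKM (others 7.32 to 8.92), Idh2 at 34.21 (8.45 to 15.46) and Dlst at 9.62 (3.91 to 5.30). Cpt1a stood at 4.70 FPKM (others 1.13 to 1.94), Cpt2 at 11.39 (2.00 to 3.53) and Acadvl at 21.58 (3.75 to 8.07). Hadha stood at 10.86 FPKM (others 4.61 to 5.22), Hadhb at 53.51 (29.08 to 35.70) and Acaa2 at 64.22 (20.71 to 31.62). In Acadm the library was lower, at 243.69 FPKM against 387.34 to 442.44 in the other 4.

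The remaining values were spread over other libraries. Pdhx stood at 49.31 FPKM in Mettl3-ASO replicate 2 (others 32.52 to 37.04) and Aco1 at 4.32 in ASO-Control replicate 1 (1.93 to 2.53). Mdh2 stood at 745.90 FPKM in ASO-Control replicate 2 (others 538.28 to 573.46), and Echs1 at 42.99 in ASO-Control replicate 4 (20.22 to 26.04).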

How the results depend on the processing

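Over 11 alternatives (3 scalings, 2 filters, DESeq2, limma with 3 pseudocounts, no batch term and a replicate block) and batch 2 alone, 16 (no batch term) to 24 (replicate block) genes fell, against 21. Leaving out 1 library gave 18 to 23 lower and 0 to 4 higher, with a median of −0.55 to −0.32, and 4194 to 4800 genes called among all. The untagged libraries alone, with 2 a group, gave 2 lower and 0 higher and 596 genes called among all, and batch 2 alone gave 1 higher. Of the 24 called genes 15 kept their call under every alternative except the untagged libraries alone, where 2 did, Idh3a and Suclg1. The replicate block called 3 further genes of the set, Pdha1, Mdh2 and Glud1, changed no other call of the set and called 5246 genes in all. Of the related list, 8 fell with no batch term and 1 in the untagged libraries, 8 rose in batch 2 alone and 3 in the untagged libraries, and leaving out 1 library gave 10 to 14 lower and 9 to 12 higher. The cause of these shifts was not tested, but 2 libraries a group leave less power. No result changed sign past its threshold under these alternatives. Aco1 and Cpt1a, at a few FPKM, rest on 27 to 46 counts at the lowest.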
